A study of Mus musculus with 12 samples.

Results

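The axon guidance ligands and receptors are the semaphorins of classes 3 to 7, their plexin and neuropilin receptors, the ephrins and Eph receptors, the Slits and Robos, and the netrins with their receptors Dcc, Neo1 and Unc5a to Unc5d and the netrin-Gs. They were chosen by gene symbol alone, from the entries of the array that carry 1 symbol, and of several entries of a gene the brightest on average was taken. This gave 69 of 19938 genes, from 75 of 35556 entries. The netrin-G gene Ntng2 and the Eph receptor gene Ephb2 had no such entry and are not among them. Their expression was measured in wild-type cochleae of C57BL/6 mice at postnatal day 8 (P8) and postnatal day 0 (P0), in the apex, the middle and the base of the cochlear duct, with no treatment and no engineered allele in any group. The 6 groups held 2 arrays each, made on the Affymetrix Mouse Gene ST platform, 1 from each of 2 dissection sets of about 80 temporal bones per age. A single array therefore stands for pieces of many ears, pooled by region. The ears of 1 age within a set gave the apex, middle and base pieces, and these ears are called a pool here. After removal of the otic capsule, a piece still held the sensory epithelium as well as the limbus and the lateral wall.

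Axon guidance molecules steer growing nerve fibres toward or away from their targets. Semaphorins signal through plexins, and the secreted class 3 semaphorins through neuropilins that act with plexins. Ephrins are membrane-bound ligands of the Eph receptor tyrosine kinases, Slits repel fibres that carry Robo receptors, and netrin-1 attracts fibres through Dcc and repels them through Unc5 receptors. In the newborn cochlea the spiral ganglion neurons have already reached the hair cells and their peripheral fibres are being refined, and many of the same molecules also act in vessels, epithelia and bone.

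The values are log2 signals from robust multiarray averaging (RMA), the authors' summary of the probes of an entry after background correction and normalization, so that a difference of 1 is a fold of 2. The median log2 signal over all entries ran from 7.21 to 7.29 over the 12 arrays. A gene was tested where its mean log2 signal was above 6 in at least 1 group, which 16306 genes met, among them 67 of the 69 guidance genes. The Eph receptor gene Epha6 (group means of 4.95 to 5.19) and Robo3 (5.64 to 5.95) stayed under that level in each group, and no difference is given for them. All 12 of 12 cochlear markers, such as Tecta, Otog, Gjb2 and Myo7a, were above 6 in each group. The first P0 apex array stood apart in 11 skeletal muscle genes, with a mean log2 signal of 7.72 against 6.51 to 6.88 in the other P0 arrays. Array signals of different genes are not on 1 scale, so levels are compared only within a gene.

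The first question was which guidance genes changed during the first postnatal week, with the P8 and P0 signals averaged over the 3 regions. A gene passed at an adjusted p under 0.05 if its fold was 2 or more, and 1 guidance gene was higher at P8, Ntn4, against 2.06% of all tested genes, and 3 were lower, Sema3e, Unc5d and Epha4, against 1.14%. These 4 genes changed in the same way in each region and in both sets. Without the fold threshold 9 guidance genes were higher at P8, against a background of 9.52%, and 19 were lower, against 9.19%. With the dissection set as a block these counts were 12 higher and 30 lower, against 19.5% and 21.8%. Each age rests on only 2 pools. Both fits count the 3 regions of a pool as independent, so SE and p are too small where these deviate together. P8 and P0 arrays of a set also deviated together from their group means, with a correlation of 0.544 or more across genes. Such a shared deviation cancels in P8 minus P0, so SE and p can also be too large in fits without the set as a block. The pool was then taken as a random block, with 1 correlation of 0.689 within pools for all genes, so p can still be too small. In that fit Ntn4 was still higher at a fold of 2 or more, against 1.91%, and Sema3e, Unc5d and Epha4 were still lower, against 0.987%. Without the fold threshold that fit left 1 higher, Ntn4, against 3.18%, and 9 lower, against 2.29%, which besides the 3 named were Ephb1, Sema4f, Robo2, Unc5b, Sema6a and Sema3a. The P8 minus P0 difference was negative in 48 of 67 genes and positive in 19, with a median of -0.14 beside -0.0014 over all tested genes. With the arrays centred on their medians 44 were negative and 23 positive, and with quantile normalization 47 were negative and 21 positive of the 68 then tested.

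**Figure D1:**
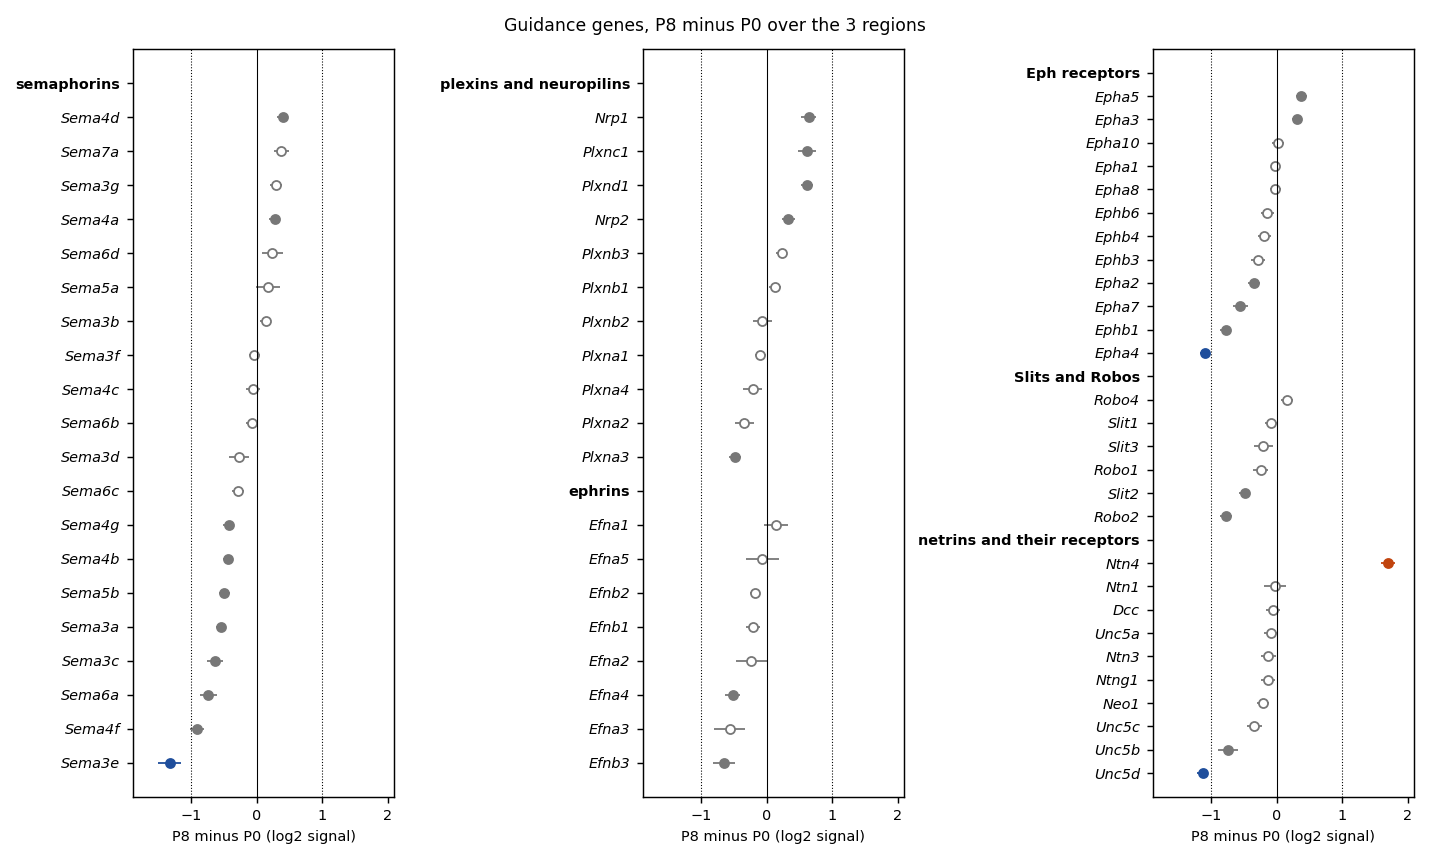
Difference in log2 signal between P8 and P0, averaged over apex, middle and base, for the 67 tested guidance genes grouped by role. Points are differences and bars their SE, filled points had an adjusted p under 0.05 in the fit without a block, coloured points also a 2-fold or larger difference (dotted lines at -1 and 1), and of the 4 coloured points only Ntn4 lies on the right, at 1.70.

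Ntn4 encodes netrin-4, a secreted netrin that is also built into basement membranes. Its log2 signal was 9.10 and 8.88 in the P8 apex, 9.37 and 9.04 in the P8 middle and 9.17 and 9.08 in the P8 base, against 7.37 and 6.99 in the P0 apex, 7.56 and 7.35 in the P0 middle and 7.62 and 7.57 in the P0 base. Every P8 array lay more than 1 log2 unit above every P0 array. The difference was 1.70 ± 0.10 (SE), a fold of 3.24 (adjusted p = 1.92e-05, and 0.000297 with the pool as a random block, n = 6 arrays from 2 pools per age), and by region it was 1.81 in the apex, 1.75 in the middle and 1.53 in the base. The other netrins did not pass. Ntn1 differed by -0.03 ± 0.17 and Ntn3 by -0.13 ± 0.11.

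Epha4 encodes a receptor that binds both A- and B-type ephrins. Its log2 signal was 8.81 and 9.05 in the P8 apex, 8.95 and 8.85 in the P8 middle and 8.99 and 8.92 in the P8 base, against 10.03 and 9.95 in the P0 apex, 10.05 and 10.06 in the P0 middle and 10.03 and 10.08 in the P0 base. The arrays of 1 age differed little among themselves and the ages did not overlap. Epha4 fell by 1.10 on the log2 scale at P8 (SE 0.08, adjusted p = 3.25e-05, and 0.00276 with the pool as a random block), a fold of 0.47.

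Sema3e encodes a class 3 semaphorin that, unlike most of its class, can signal through plexin-D1 without a neuropilin. Its log2 signal was 7.54 and 7.36 in the P8 apex, 7.96 and 7.22 in the P8 middle and 7.48 and 7.18 in the P8 base, against 9.09 and 8.83 in the P0 apex, 9.22 and 8.63 in the P0 middle and 8.75 and 8.21 in the P0 base. The first set was higher than the second in each group, and the ages still did not overlap. Sema3e fell by 1.33 on the log2 scale (SE 0.17, adjusted p = 0.000995, and 0.00855 with the pool as a random block), a fold of 0.40. Plxnd1, which encodes that plexin, differed by 0.61 ± 0.09 (adjusted p = 0.00153, but 0.101 with the pool as a random block), with arrays from 9.56 to 9.97 at P8 and from 9.05 to 9.25 at P0.

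Unc5d encodes a repulsive netrin receptor that also binds FLRT proteins. Its log2 signal was 7.50 and 7.45 in the P8 apex, 7.48 and 7.22 in the P8 middle and 7.22 and 7.25 in the P8 base, against 8.80 and 8.79 in the P0 apex, 8.55 and 8.32 in the P0 middle and 8.23 and 8.24 in the P0 base. The ages did not overlap, and the difference was -1.32 in the apex and -1.09 in the middle. Unc5d fell by 1.13 on the log2 scale (SE 0.08, adjusted p = 3.82e-05, and 0.00237 with the pool as a random block). A further entry of the gene, with a lower signal, gave -0.90.

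**Figure D2:**
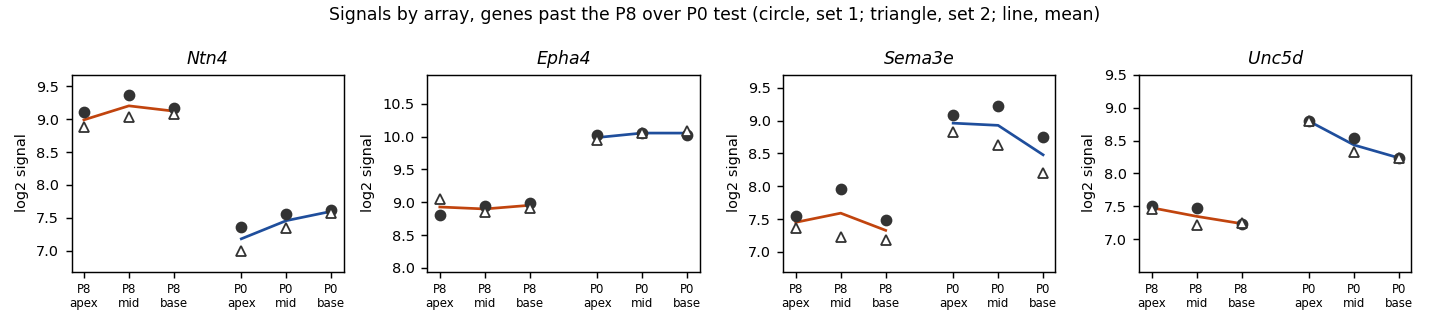
Log2 signal of each array for the 4 guidance genes past the P8 over P0 test, with the P8 regions left and the P0 regions right in each panel. Circles are the first and triangles the second dissection set, lines join group means of 2 arrays, each panel spans 3 log2 units, and in none of the 4 genes do the P8 and P0 arrays overlap.

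The promoter windows of 3 of these genes are shown so that the start-site sequence of the members with the largest age differences can be read beside their values. Each window is RefSeq sequence of build GRCm38.p6, from 250 bases before to 50 bases after the annotated start, read 5′ to 3′ on the strand of the gene, and Unc5d had no window. Capitals mark matches on either strand to the 3 core promoter motifs that are spelled out after the sequences. Ntn4 is at chr10:93640799-93641098 on the plus strand, Epha4 at chr1:77515039-77515338 on the minus strand and Sema3e at chr5:14025026-14025325 on the plus strand.
Ntn4: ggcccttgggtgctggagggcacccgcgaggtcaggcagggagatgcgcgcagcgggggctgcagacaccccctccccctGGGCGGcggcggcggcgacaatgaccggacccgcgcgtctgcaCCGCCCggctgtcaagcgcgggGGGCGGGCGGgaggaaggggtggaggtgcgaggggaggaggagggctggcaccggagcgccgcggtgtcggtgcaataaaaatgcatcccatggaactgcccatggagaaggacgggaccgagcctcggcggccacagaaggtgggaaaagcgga
Epha4: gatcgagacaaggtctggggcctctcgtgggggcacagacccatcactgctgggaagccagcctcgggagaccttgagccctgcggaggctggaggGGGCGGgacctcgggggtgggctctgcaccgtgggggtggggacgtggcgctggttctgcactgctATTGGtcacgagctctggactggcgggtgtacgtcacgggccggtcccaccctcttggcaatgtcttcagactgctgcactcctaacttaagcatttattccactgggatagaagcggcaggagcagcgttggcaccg
Sema3e: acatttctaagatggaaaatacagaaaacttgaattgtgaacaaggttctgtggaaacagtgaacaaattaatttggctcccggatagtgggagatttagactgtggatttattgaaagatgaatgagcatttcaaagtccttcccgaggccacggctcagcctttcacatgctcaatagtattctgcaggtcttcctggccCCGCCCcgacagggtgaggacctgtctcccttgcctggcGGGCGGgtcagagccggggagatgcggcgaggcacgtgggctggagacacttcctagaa

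The Ntn4 window held 31 CG dinucleotides and 4 GC box matches, the Epha4 window 17 CG dinucleotides with 1 GC box and 1 CCAAT box, and the Sema3e window 11 CG dinucleotides with 2 GC boxes. The 75 windows of the 59 guidance genes that had one held a median of 20 CG dinucleotides, beside 7 over all 32851 windows. The GC box, searched as GGGCGG with overlapping matches counted, was found in 73.3% of the guidance windows and 35.7% of all windows. The CCAAT box, searched by the letters of its name, was found in 28% of the guidance windows and 37.4% of all windows. The TATA box, searched as TATAAA, was found in 2.67% of the guidance windows and 13.6% of all windows. The windows of all genes were taken without a filter on gene type or signal, while the guidance genes are all protein-coding. The shares are therefore not from matched genes. A letter match is a description of the window, and no binding was measured.

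The role groups are described from the fit without a block and without regard to fold. In that fit 9.52% of all tested genes were higher at P8 and 9.19% were lower. Each adjusted p is followed by that with the pool as a random block. Further genes passed only with the dissection set as a block, and among the role groups they are named for the ephrins alone. Among the 20 semaphorins, 2 were higher at P8 and 8 were lower. The lower genes were the class 3 genes Sema3a, Sema3c and Sema3e and the transmembrane semaphorins Sema4b, Sema4f, Sema4g, Sema5b and Sema6a, of which Sema3c, Sema4b, Sema4g and Sema5b did not pass with the random block. Sema4f had P8 arrays from 6.25 to 6.87 (median 6.58) and P0 arrays from 7.23 to 7.86 (median 7.44), a difference of -0.92 ± 0.11 (adjusted p = 0.00057, then 0.0126). Sema6a, a ligand and receptor at the cell surface, had P8 arrays from 9.58 to 10.10 and P0 arrays from 10.33 to 10.90, a difference of -0.74 ± 0.14 (adjusted p = 0.0056, then 0.0461). The 2 genes that were higher, Sema4d and Sema4a, did not pass with the random block. Sema4d, a ligand of plexin-B1 also known from immune cells, differed by 0.39 ± 0.09 (P8 arrays 8.72 to 9.00, P0 arrays 8.29 to 8.58, adjusted p = 0.0134, then 0.273).

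Of the 11 plexins and neuropilins, the receptors of the semaphorins, 4 were higher at P8, against 9.52% of all tested genes. In this group 1 was lower, against 9.19%, and none of these 5 passed with the random block. Nrp1, the co-receptor of Sema3a that also binds VEGF in endothelium, had P8 arrays from 9.63 to 10.05 (median 9.81) and P0 arrays from 8.97 to 9.44 (median 9.17). No P8 array reached the P0 range, and the difference was 0.64 ± 0.11 (adjusted p = 0.0044, then 0.07). Plxnc1, the receptor of Sema7a, differed by 0.61 ± 0.13, and Nrp2 by 0.33 ± 0.10. Plxna3, which acts with neuropilins, was the gene that was lower, with P8 arrays from 7.93 to 8.09 against P0 arrays from 8.26 to 8.59 and a difference of -0.49 ± 0.09 (adjusted p = 0.0045, then 0.142).

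Of the 8 ephrins none was higher at P8, against 9.52% of all tested genes, and Efna4 and Efnb3 were lower, against 9.19%. With the dissection set as a block Efna3 was lower as well (-0.57, adjusted p = 0.000105, with -0.59 and -0.56 in the 2 sets). So were Efna2 (-0.24, adjusted p = 0.0121), Efnb1 (-0.21, adjusted p = 0.0209) and Efnb2 (-0.18, adjusted p = 0.0467) in that fit, against 21.8% of all tested genes. No ephrin passed with the random block. Efnb3, a transmembrane ephrin, had P8 arrays from 7.17 to 7.95 and P0 arrays from 8.02 to 8.40, a difference of -0.65 ± 0.17 (adjusted p = 0.027, then 0.116). At the other end Efna1 differed by 0.14, which did not pass. Of 12 Eph receptors Epha3 and Epha5 were higher, against 9.52%, and Epha2, Epha4, Epha7 and Ephb1 were lower, against 9.19%. Among these Epha4 and Ephb1 passed with the random block. Epha5 had P8 arrays from 8.31 to 8.80 and P0 arrays from 7.95 to 8.28, a difference of 0.37 ± 0.09 (adjusted p = 0.017, then 0.384). Ephb1 had P8 arrays from 6.75 to 7.20 and P0 arrays from 7.54 to 8.03, a difference of -0.78 ± 0.08 (adjusted p = 0.000385, then 0.0107), and its dimmer entry gave -0.26. The difference was positive in 3 of 8 EphA genes and in 0 of 4 EphB genes.

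The Slit ligand Slit2 and the receptor Robo2 were lower at P8 among 6 tested Slits and Robos, against 9.19% of all tested genes. Slit2 had P8 arrays from 10.12 to 10.37 and P0 arrays from 10.39 to 10.90, a difference of -0.49 ± 0.08 (adjusted p = 0.0038, then 0.12). Robo2 differed by -0.77 ± 0.09 (adjusted p = 0.00056, then 0.023), by -0.49 in the apex, -0.89 in the middle and -0.94 in the base, and its P8 and P0 arrays overlapped because of its spread along the cochlea. Robo4, the endothelial Robo, differed by 0.15 and did not pass. All 6 tested netrin receptors had a negative difference, beside 8189 of all 16306 tested genes, and Unc5b and Unc5d passed, against 9.19%. Unc5b, known from endothelium as well as from axons, differed by -0.75 ± 0.15 (adjusted p = 0.008, then 0.0423).

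All 6 P8 arrays lay above all 6 P0 arrays in 7 guidance genes, against 8.08% of all tested genes, and below them in 16, against 7.41%. The P8 minus P0 difference had the same sign in both sets in 58 of 67 genes, against 71.4% of all tested genes. Cell markers moved over the same interval. Of 15 spiral ganglion neuron markers 14 had a negative difference and 11 passed in the fit without a block, without regard to fold, with a mean log2 signal over the list of 7.07 to 7.77 in the P8 arrays and 8.36 to 8.70 in the P0 arrays, and 12 of the 15 were above 6 in each group. All 7 bone, 9 stria vascularis and 7 myelin markers had a positive difference, with 6, 7 and 5 past the test and means of 2.26, 1.08 and 0.63 over each list. Of 10 endothelium and pericyte markers 9 were positive and 2 passed, with a mean of 0.30, and of 9 macrophage markers 9 were positive and 5 passed, with a mean of 0.53. The part of these markers in the differences of the guidance genes was not tested, and in whole tissue fewer cells of a type and less RNA per cell cannot be told apart.

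The second question was which guidance genes were graded along the tonotopic axis, with the apex over the base at each age. Without pairing, 0 guidance genes passed at P0 at the same adjusted p with a fold threshold of 1.5, higher or lower, against 0.00613% and 0% of all tested genes. At that fold and an unadjusted p under 0.05, 5 were higher and 0 lower, beside 97 and 91 of the 16306 tested genes. At P8, 2 were higher in the apex, Epha3 and Robo2, against 0.178%, and 0 were lower, against 0.0184%. Without adjustment, at the same fold, 4 were higher and 3 lower at P8, beside 198 and 120 of the 16306. Since 1 pool gave both the apex and the base, the arrays were also paired by pool, which gave more calls across the array. Paired by pool, 5 guidance genes were higher in the P0 apex (Sema3a, Epha3, Robo2, Unc5c and Unc5b), against 0.73%, and 0 were lower, against 0.687%. Ntn4, at -0.42, was under that fold (unadjusted p = 0.046 in the unpaired fit). At P8, 4 were higher in the apex (Epha3, Robo2, Sema3a and Unc5b), against 1.55%, and 3 were lower (Ntn1, Sema3d and Sema3c), against 1.26%. The same 4 genes passed at both ages. The middle had a mean between those of the apex and the base in 7 of the 7 genes called at P8 and in 5 of the 5 called at P0. These genes were chosen on the same arrays for a wide gap between apex and base. A middle mean inside that gap is therefore likely beforehand and is no test of a gradient. In the first P8 pool the Ntn1 middle (7.14) lay below the apex (7.28).

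Epha3 encodes a receptor for A-type ephrins that is known from chick as graded across the retina. Its log2 signal at P8 was 9.18 and 9.27 in the apex, 8.66 and 8.62 in the middle and 8.10 and 7.90 in the base. At P0 it was 8.75 and 8.66 in the apex, 8.38 and 8.53 in the middle and 7.72 and 7.81 in the base. The order apex, middle, base held in each of the 4 pools with no overlap between regions. The apex over base difference was 1.22 ± 0.13 at P8 (fold 2.33, adjusted p = 0.0198, and 3.94e-05 paired by pool) and 0.94 ± 0.13 at P0 (fold 1.92, adjusted p = 0.168, and 0.000853 paired by pool). No other tested Eph receptor and no ephrin passed at either age, paired or not.

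Robo2 encodes a receptor for Slits. Its log2 signal at P8 was 9.71 and 9.47 in the apex, 9.15 and 8.90 in the middle and 8.37 and 8.47 in the base. At P0 it was 10.00 and 10.16 in the apex, 9.85 and 9.99 in the middle and 9.26 and 9.45 in the base. The regions did not overlap at P8, while the middle at P0 lay close to the apex. The difference was 1.17 ± 0.16 at P8 (fold 2.25, adjusted p = 0.0351, and 5.73e-05 paired by pool) and 0.72 ± 0.16 at P0 (fold 1.65, adjusted p = 0.427, and 0.00451 paired by pool). Robo1, a further Slit receptor, differed by 0.23 at P8 and 0.43 at P0 and did not pass, and no Slit passed.

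The promoter windows of these 2 genes are shown because they are the members past the unpaired apex over base test at P8. They are RefSeq windows of the same length and build, Epha3 at chr16:63864126-63864425 and Robo2 at chr16:75447244-75447543, both on the minus strand, and the Robo2 window is the farthest upstream of the 3 that the sequence table holds for the gene.
Epha3: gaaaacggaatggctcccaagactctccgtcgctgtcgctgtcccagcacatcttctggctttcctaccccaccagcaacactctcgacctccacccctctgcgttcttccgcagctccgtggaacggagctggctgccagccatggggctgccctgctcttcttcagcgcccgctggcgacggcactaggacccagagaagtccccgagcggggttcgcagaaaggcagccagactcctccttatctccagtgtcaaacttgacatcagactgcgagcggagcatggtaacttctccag
Robo2: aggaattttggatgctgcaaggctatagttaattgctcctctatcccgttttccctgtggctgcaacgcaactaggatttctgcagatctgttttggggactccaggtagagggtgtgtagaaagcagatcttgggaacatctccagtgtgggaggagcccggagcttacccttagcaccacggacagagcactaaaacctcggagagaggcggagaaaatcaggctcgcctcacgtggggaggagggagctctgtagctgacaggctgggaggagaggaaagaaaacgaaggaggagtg

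Neither window held a match to the 3 motifs, so no letter is in capitals, and they held 18 and 9 CG dinucleotides.

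Sema3a encodes the class 3 semaphorin that repels sensory fibres through neuropilin-1. Its log2 signal at P8 was 9.13 and 9.19 in the apex, 8.67 and 8.73 in the middle and 8.38 and 8.40 in the base. At P0 it was 10.00 and 9.83 in the apex, 9.29 and 9.14 in the middle and 8.86 and 8.68 in the base. Both sets gave the same order at both ages. The difference was 0.77 ± 0.13 at P8 (adjusted p = 0.0911, and 0.000556 paired by pool) and 1.15 ± 0.13 at P0 (fold 2.21, adjusted p = 0.066, and 8.83e-05 paired by pool). Its receptor gene Nrp1 differed along the axis by -0.07 at P8 and -0.14 at P0, which did not pass.

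Sema3c and Sema3d, of the same class, ran the other way at P8. Sema3c had log2 signals of 7.67 and 8.16 in the P8 apex, 8.42 and 8.49 in the P8 middle and 8.62 and 8.68 in the P8 base, and its P0 arrays lay between 8.79 and 9.16. Sema3d had 8.48 and 8.70 in the P8 apex, 9.06 and 9.11 in the P8 middle and 9.26 and 9.61 in the P8 base, and its P0 arrays lay between 8.91 and 9.69. The apex arrays were the lowest of the P8 arrays in both genes, and apex and base overlapped at P0. The P8 differences were -0.74 for Sema3c (adjusted p = 0.434, and 0.00687 paired by pool) and -0.85 for Sema3d (adjusted p = 0.72, and 0.00578 paired by pool). The P0 differences were 0.06 and 0.04, averages of opposite signs in the 2 sets. In the first set the P0 apex was above the base (9.03 against 8.80 for Sema3c, 9.32 against 8.91 for Sema3d). In the second set it was below the base (9.00 against 9.11 and 9.36 against 9.69).

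In the netrin system, paired by pool, the ligand gene Ntn1 was lower in the P8 apex and the receptor gene Unc5b was higher in the apex at both ages. Ntn1 had log2 signals of 7.28 and 7.55 in the P8 apex, 7.14 and 8.05 in the P8 middle and 8.10 and 8.52 in the P8 base, and of 7.75 and 7.44 in the P0 apex, 7.61 and 7.74 in the P0 middle and 8.23 and 8.03 in the P0 base. The apex was below the base in each pool, with differences of -0.82 and -0.97 at P8 and -0.49 and -0.59 at P0. The apex over base difference was -0.89 at P8 (adjusted p = 0.706, and 0.00371 paired by pool) and -0.54 at P0, which did not pass (adjusted p = 0.0992 paired by pool).

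Unc5b had log2 signals of 8.14 and 8.75 in the P8 apex, 7.93 and 8.41 in the P8 middle and 7.55 and 7.96 in the P8 base, and of 9.03 and 9.31 in the P0 apex, 8.82 and 8.93 in the P0 middle and 8.44 and 8.70 in the P0 base. The second set was higher than the first in each group, and within each pool the apex was highest. The difference was 0.69 at P8 (adjusted p = 0.916, and 0.00203 paired by pool) and 0.60 at P0 (adjusted p = 1, and 0.00995 paired by pool). At P0 4 of the 6 netrin receptor genes had like differences, 0.72 for Unc5c, 0.60 for Unc5b, 0.58 for Dcc and 0.56 for Unc5d, beside 0.04 for Neo1 and -0.02 for Unc5a. Dcc and Unc5d lay just under the fold of 1.5, at 1.49 and 1.47, with adjusted p = 0.0102 and 0.0219 paired by pool. At P8 Dcc differed by 0.37 and Unc5d by 0.24. The dimmer entry of Unc5d gave 0.65 at P0, above a fold of 1.5, and 0.48 at P8. The median over the 6 receptors was 0.21 at P8 and 0.57 at P0, beside 0.0028 and 0.03 over all tested genes.

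**Figure D3:**
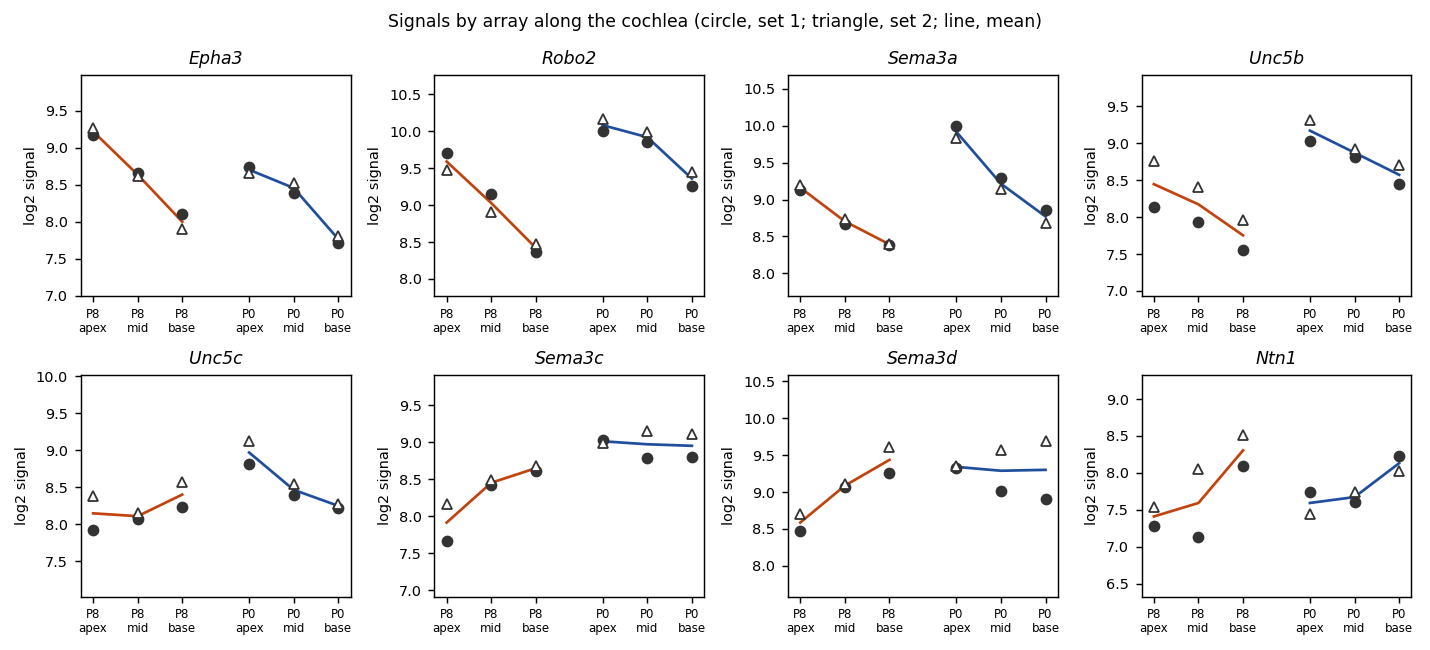
Log2 signal of each array along the cochlea for the 8 guidance genes past the apex over base test paired by pool at either age, P8 regions left and P0 regions right. Circles are the first and triangles the second dissection set, lines join group means of 2 arrays and each panel spans 3 log2 units, and in Unc5c the P8 apex lies below the P8 base while the P0 apex lies above the P0 base.

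The third question was whether the gradient differed between the ages, tested as the apex over base difference at P8 minus that at P0. In the unpaired fit 0 guidance genes passed, as did 0% of all tested genes, with 333 genes and 4 guidance genes at an unadjusted p under 0.05. Paired by pool, 0 guidance genes were higher, against 0.589%, and 1 was lower, Unc5c, against 0.337%. Unc5c encodes a repulsive netrin receptor needed for cerebellar and spinal axon paths. Its log2 signal at P8 was 7.92 and 8.38 in the apex, 8.07 and 8.15 in the middle and 8.23 and 8.57 in the base. At P0 it was 8.81 and 9.13 in the apex, 8.39 and 8.54 in the middle and 8.23 and 8.27 in the base. The apex was below the base in both P8 pools and above it in both P0 pools. The apex over base difference was -0.25 at P8, which did not pass, and 0.72 at P0 (adjusted p = 0.809, and 0.00607 paired by pool). The change was -0.98 (SE 0.17, adjusted p = 0.0148 paired by pool, and 1 in the unpaired fit). Leaving out the first P0 base, the second P0 base or the first P8 apex array ended the call, with adjusted p of 0.0653, 0.0724 and 0.103.

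**Figure D4:**
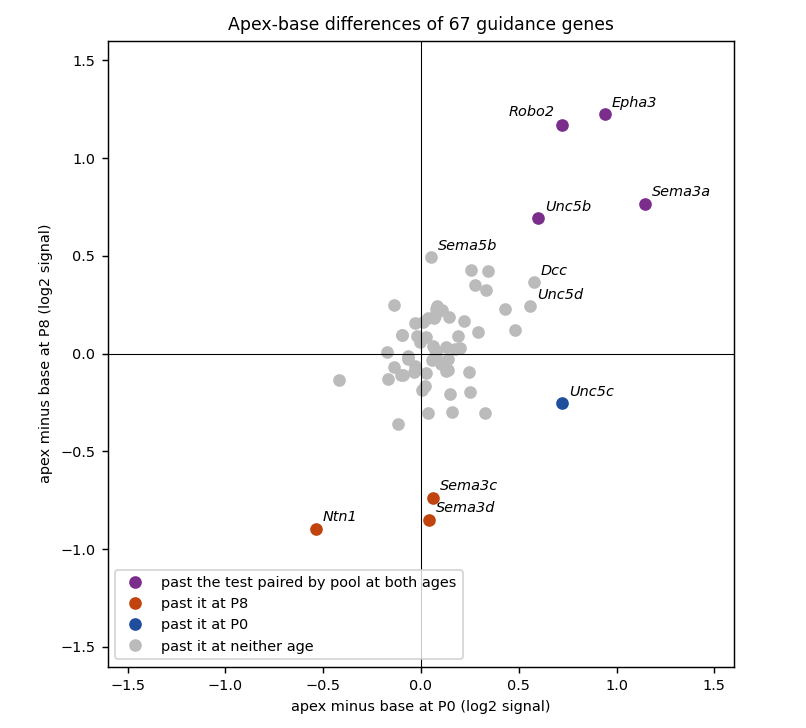
Apex over base difference in log2 signal at P8 (vertical axis) against that at P0 (horizontal axis) for the 67 tested guidance genes, coloured by the test paired by pool, which asks for a 1.5-fold difference. Epha3, Robo2, Sema3a and Unc5b lie in the upper right as the 4 genes past the test at both ages, and Unc5c, at -0.25 and 0.72, lies in the lower right.

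The apex over base calls rested on few arrays. In the unpaired fit 0 or 1 of the 2 P8 calls was left without any 1 array, and paired by pool the P0 calls fell to 3 without either P0 base array and the lower P8 calls to 1 without the first P8 base or the first P8 apex array. The calls of Epha3 and Sema3a held at both ages in each paired fit that left out 1 array. Without the P0 apex array with high skeletal muscle signal, 5 genes passed at P0 paired by pool. Cell markers were also graded. At P8 all 11 hair cell and 10 supporting cell markers had a positive apex over base difference, with means of 0.56 and 0.69 over each list. The difference was positive in 12 of 15 neuron markers (mean 0.31) and negative in all 7 bone and 8 cartilage markers (means -0.89 and -0.41). All 9 macrophage and 10 endothelium and pericyte markers were negative at P8 as well (means -0.42 and -0.18), and all 9 stria vascularis markers were negative at both ages (means -0.36 at P8 and -0.45 at P0). At P0 the mean difference was 0.39 for supporting cells, 0.20 for neurons and -0.0037 for hair cells. The part of these markers in the gradients was not tested.

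Other genes of the pathway, a list of 77 effectors and cofactors of which 75 were tested, moved in both directions. In the fit without a block 3 were higher at P8 than at P0 by at least 2-fold, against 2.06% of all tested genes. Among them were the adhesion gene Chl1 (1.47, adjusted p = 0.00087) and the hepatocyte growth factor receptor gene Met (1.22, adjusted p = 0.0125). In the same fit 3 were lower, against 1.14%. These were the semaphorin effector Crmp1 (-1.47, adjusted p = 0.00106), the growth cone gene Gap43 (-1.39 ± 0.37, adjusted p = 0.0299) and Lrig3 (-1.17, adjusted p = 0.000334). The fit with the random block is not given for this list. Gap43 is also among the neuron markers. The median difference of the list was -0.13, beside -0.0014 over all tested genes. In the P8 apex over the P8 base Nrcam, an adhesion partner of neuropilins, was higher by 0.99 (adjusted p = 0.0351), against 0.178% of all tested genes. Paired by pool Pak3 (0.81) and Dpysl2 (0.61) passed as well, against 1.55%. At P0 0 of 75 passed in either fit, and 0 at a fold of 1.5 without adjustment (unadjusted p under 0.05).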

How the data were processed

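RNA of pooled cochlear pieces was hybridized to 12 Affymetrix Mouse Gene ST arrays. The authors made log2 signals with Affymetrix Command Console software and RMA, and deposited them as used here. RMA versions, and whether all arrays shared 1 run, are not given in the sources used here. Of 35556 entries, 21789 carried 1 symbol, 1621 several and 12146 none, and only the first were used. The 16306 genes with a mean above 6 in a group were fitted with limma 3.58.1 in R 4.3.3 (6 group means, no block, as the methods name an unpaired test, 6 residual and 2.78 prior degrees of freedom), with Benjamini-Hochberg adjustment over all of them. Per the methods, the cochleae of a dissection were cut into apex, middle and base, and the pieces were pooled by region. The labels give age, region and year, and arrays of the same age and year were taken as 1 pool, which pairs them. Deviations from group means correlated at 0.697 to 0.916 between arrays of the same age and set, and the fit was repeated with the pool as a block (apex over base) or, added after seeing the data, as a random block by limma's duplicateCorrelation (P8 over P0). The arrays number 2 per group, which limits precision. Without a block the p-values measure the spread between the 2 arrays of a group, with the regions counted as independent. With the pool as a block they measure what is left after deviations shared within a pool are removed. Only the random block takes in the spread between pools, as 1 correlation shared by all genes. With 2 pools per age its p-values can still be too small. The median SD between the 2 arrays of a group was 0.13 over the guidance genes. Named genes are those past a test with or without a block, the extremes of each role group, and genes listed by the study. The members, marker lists and effector list were chosen with earlier results of these data known. The script was tested on simulated arrays for the apex over base comparison at P8 without a block. The simulated noise was independent between arrays, which leaves out the deviations shared by arrays of a set. Figures used matplotlib 3.10.9.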

Additional observations from a re-analysis of the deposited data

Results flagged for a closer look

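The apex over base difference of Unc5c changed between the ages by -0.98 in the fit paired by pool, since it was -0.31 and -0.20 in the P8 pools and 0.59 and 0.85 in the P0 pools. It was taken up here because the difference between the ages was itself tested and passed for this guidance gene. The 2 dissection sets agreed in sign at each age, and neither the unpaired fit nor the fit with the dissection set as a block called it (adjusted p = 1 and 0.0923). At P0 10 of 10 tested skeletal muscle markers were positive in the apex over base difference, and without the P0 apex array in which they were high the change was -1.08 and still passed.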

How the results depend on the processing

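The P8 over P0 calls (1 higher, 3 lower) were the same in number under each alternative and without each array. Without the fold threshold, a count added after seeing the data, the dissection set as a replicate block gave 30 lower in place of 19, the pool as a random replicate block, also added later, 1 higher in place of 9 and 9 lower, and leaving out 1 array gave 5 to 8 higher (5 without the first P8 base or the first P8 middle array) and 17 to 19 lower. For the apex over base at P0, in place of 0 higher, the set block gave 3, the pool block 5 and the methods' unpaired test without adjustment 4. At P8, in place of 2 higher, the set block gave 4, the pool block 4, a variance trend with robust prior 1, the methods' unpaired test with Benjamini-Hochberg adjustment 0 and the arrays of that age alone 0, and leaving out 1 array gave 0 to 1. In place of 0 lower the set block gave 2 and the pool block 3. For the change of the difference the pool block gave 1 lower in place of 0. With the pool block and 1 array left out, also added after seeing the data, the counts were 3 to 5 higher at P0, 3 to 4 higher and 1 to 3 lower at P8, and 0 to 4 lower for the change, with 4 without the second P0 apex array. The causes were not tested. The filters on low values, the mean over the entries of a gene, quantile normalization and centring moved none of these counts by more than 1.5 times. With 2 arrays per group, a small difference would not be detectable, and the signal over background was not given.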

Other observations

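Several guidance genes are represented by 2 entries of the array. The 2 entries of Ntng1, which encodes the membrane-anchored netrin-G1, differed in the P8 minus P0 difference, at -0.14 for the brighter entry that was used and -0.80 for the other, while those of Sema4d were at 0.39 and 0.41. The 2 entries of Sema6b held identical values.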
